A study of Mus musculus with 22 samples.

Results

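The axon guidance ligands and receptors described here were the genes of the deposited count table whose mouse symbol belongs to the class 3 to class 7 semaphorins, the plexins, the neuropilins, the ephrins, the Eph receptors, the Slits, the Robos, the netrins, the Unc5 receptors or Dcc. This rule on symbols found 68 of the 53379 genes counted, and it used no measured value. They comprised 7 class 3 semaphorins, 13 other semaphorins, 9 plexins, 2 neuropilins, 5 ephrin-A and 3 ephrin-B ligands, 9 EphA and 5 EphB receptors, 3 Slits, 4 Robos, 3 netrins and 5 netrin receptors. All 68 passed the filter on low counts that left 40714 genes for testing.

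mRNA was sequenced from nuclei of the left hippocampus of adult male C57/BL6N mice, which were acquired at an age of 8 weeks and acclimatized for 4 weeks. Kainate, a glutamate receptor agonist (70 nl, 20 mM), was injected above the right hippocampus to elicit status epilepticus, and sham mice received 0.9% NaCl. The left hippocampus, contralateral to the injection, was taken after 24 h, and only kainate mice with convulsive seizures were kept. The 8 mice of each treatment were pooled into 3 pools, 1 of 4 mice and 2 of 2 mice, and sorting on NeuN, a nuclear protein of neurons, split the nuclei of every pool. This gave 3 libraries of kainate neurons (KLp, NeuN+), 3 of sham neurons (SLp), 3 of kainate glia (KLn, NeuN–) and 2 of sham glia (SLn, replicates 1 and 3), because 1 sham glia sample failed in preparation. The side measured had not received the injection. NeuN– nuclei are all nuclei without the NeuN stain, which includes vascular cells and any unstained neurons beside glia.

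Axon guidance proteins steer growing axons and dendrites by attraction or repulsion. Semaphorins are secreted (class 3) or membrane-bound ligands that act through plexins, and most class 3 members need neuropilins as co-receptors. Ephrin-A ligands are anchored to the membrane by lipid and ephrin-B ligands by a transmembrane segment, and both signal through the Eph receptor tyrosine kinases. Slits act through Robos, and netrins through Dcc and the Unc5 receptors. In the adult hippocampus many of these genes stay expressed, and several are known for roles at synapses, along the mossy fibres of the dentate granule cells, and in the oligodendrocyte lineage.

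Library totals ranged from 12058875 to 45428465 counts, and no molecular identifiers were used, so counts overstate the number of independent molecules. RNA input was 0.05 ng, amplified over 15 cycles, for KLn replicate 2 and SLn replicate 1, whereas 1 ng and 10 cycles were used for the 9 remaining libraries. The sort separated the cell types. The summed level of 8 neuron markers was 3602 to 7637 CPM (counts scaled for library size and composition) in NeuN+ and 628 to 1034 in NeuN– nuclei, and that of 6 oligodendrocyte markers was 209 to 475 and 4852 to 38943. Between the 2 sham glia libraries the oligodendrocyte sum differed from 8752 (replicate 3) to 38943 CPM (replicate 1), and in kainate glia it ran from 4852 to 27163. The ratio of the highest to the lowest library of a group had a median over the 68 members of 1.76 in kainate neurons, 1.55 in sham neurons, 1.91 in kainate glia and 1.96 in sham glia. In these bulk libraries, fewer nuclei of a type and less RNA per nucleus cannot be told apart.

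The members are long genes. Their median span in the gene models was 51.5 kb, against 17.4 kb for the 21865 protein-coding genes counted, and 32 of the 68 spanned more than 100 kb (47.1%, against 11.4%). Their median level over the 11 libraries was 55.7 CPM, against 1.79 CPM for all genes tested. In every neuron library 49 of the 68 lay above 10 CPM, and in every glia library 45. Efna4, Epha2, Ephb4, Ntn5, Robo4, Sema3b and Sema3g fell below 1 CPM in at least 1 library, and Sema3g was at 0 in 2 libraries, both of replicate 1 of a sham group. The library kit does not mark strand, so exons shared with a gene on the other strand matter, and 17 members shared exon bases with another counted gene. The share exceeded 10% of the exonic length in Ntn5 (23.4%, with Sec1), Efna3 (14.1%, with Gm15998), Plxna1 (10.7%, with Gm26811) and Efna4 (10.5%, with 4731419I09Rik). Reads over these bases cannot be assigned to a gene by strand.

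Per kilobase of exon, the members with the highest level in NeuN+ nuclei were a Slit, 3 Eph receptors and a netrin receptor. Slit1 (chr19:41600257-41743665), a secreted repellent, reached 109.6 ± 23.8 CPM per kb (SD, n = 6), the kinase-inactive receptor Ephb6 89.0 ± 28.7, Epha6 83.8 ± 14.2, Unc5a 78.6 ± 27.7 and Epha7 64.8 ± 16.3. The gaps between these neighbours were smaller than their SDs. The other leading members of their roles in NeuN+ nuclei were Sema6b (61.4 CPM per kb), the neuropilin Nrp1 (44.8), Efnb3 (42.3), Plxna4 (37.4), Efna3 (27.2), Robo3 (26.4), Sema3e (17.7) and Ntn5 (7.69). Slit1 and Slit3 (51.6 ± 5.59 CPM per kb) lay above all 4 Robos in the mean. The class 3 semaphorins, which include the ligands of Nrp1, lay low apart from Sema3e, with the other 6 at 0.287 to 3.32 CPM per kb. The classical netrin Ntn1 was at 0.742 CPM per kb, while all 5 netrin receptors were at 2.00 or more.

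In NeuN– nuclei the order was different. Efnb3, an ephrin-B known in myelinating oligodendrocytes, had the highest mean at 149 ± 106 CPM per kb (SD, n = 5). It was followed by the plexins Plxnb3 (75.7 ± 25.4) and Plxnb1 (27.2 ± 16), and the SD of Efnb3 reached below Plxnb3. The leading members of the other roles in NeuN– nuclei were Ephb6 (25.1 CPM per kb), Sema6a (19.7), Unc5b (17.3), Efna1 (13.8), Slit1 (8.78), Sema3d (8.29), Nrp1 (8.02), Epha7 (6.87), Ntn1 (4.03) and Robo2 (3.60).

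**Figure D1:**
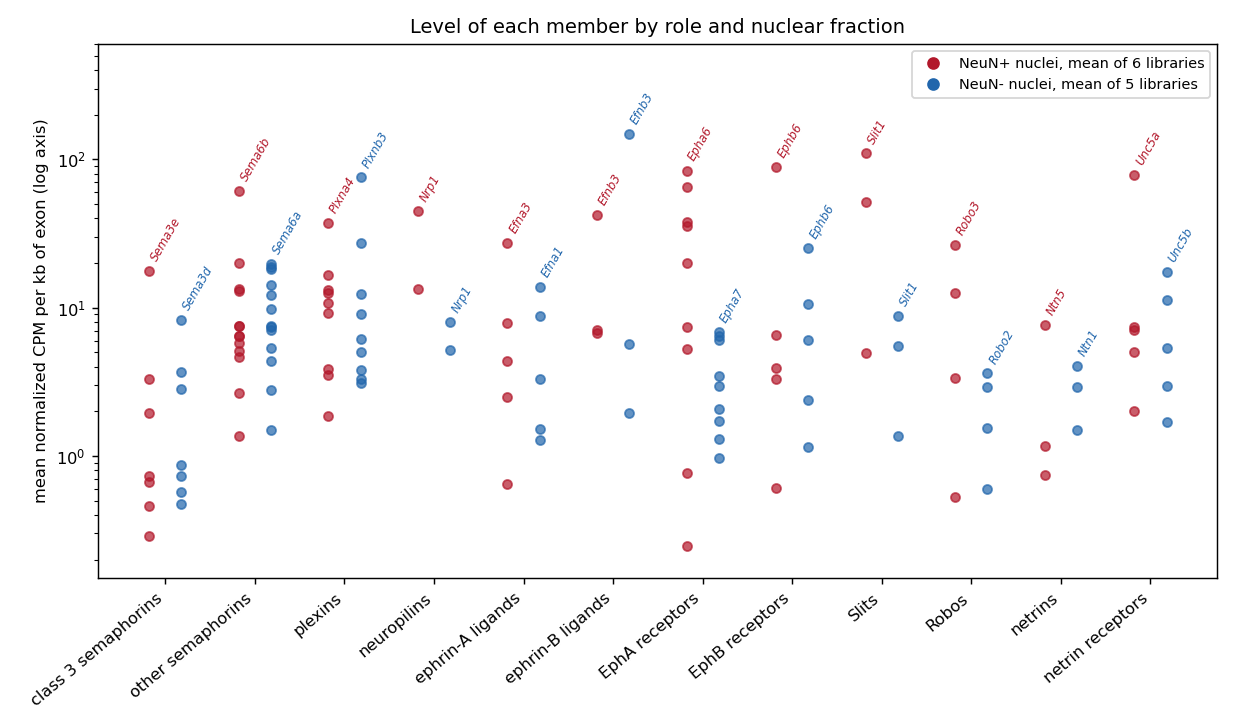
Mean level of each of the 68 members in CPM per kb of exon on a log axis, by role, in NeuN+ (red, 6 libraries) and NeuN– nuclei (blue, 5 libraries), with the highest member of each role named. The EphA receptors and Slits reach their highest levels in NeuN+ nuclei, and Efnb3 and Plxnb3 in NeuN– nuclei.

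The comparison of NeuN+ with NeuN– nuclei over both treatments asks which of these genes differ between neurons and the other nuclei. With edgeR's quasi-likelihood test and an FDR (adjusted p) below 0.25, 36 of the 68 members had higher and 20 lower levels in NeuN+ nuclei, while 12 were not called. Of all 40714 genes tested, 16.8% were higher and 20.4% lower, and among the members 52.9% and 29.4%. The members are more highly expressed than most genes tested (medians above), and a background matched for level was not formed. Since both fractions of a pool come from the same mice, the pool was also used as a block, which called 39 members higher and 21 lower (24.9% and 34.8% of all genes). The median log2 fold change was 0.85 over the members and -0.47 over all genes.

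The receptors of ephrin-A and the ligands of the Robos were mostly neuronal. Among 9 EphA receptors 7 were higher and 2 lower in NeuN+ nuclei. Epha6 had the largest log2 fold change of any member at 3.87 (SE 0.64), with 324 to 548 CPM in the NeuN+ libraries and 4.64 to 64.8 in the NeuN– libraries. Epha10, a kinase-inactive receptor, followed at 3.58, Epha7 at 3.35 and Epha5 at 2.74, and the NeuN+ and NeuN– libraries of none of these 4 overlapped. Epha2 (-1.97) and Epha1 (-1.43) were the pair that was lower. All 3 Slits were higher in NeuN+ nuclei, with log2 fold changes of 3.63 for Slit1, 3.37 for Slit3 and 1.85 for Slit2. The Robos Robo3 (3.35), Robo2 (1.79) and Robo1 (1.06) were higher too, while Robo4, known from endothelial cells, had -0.13 (SE 0.68) and low counts, and was not called. Both neuropilins were higher, Nrp1 by 2.52 and Nrp2 by 1.48 on the log2 scale. Efna3 (3.11), Unc5a (2.79) and Plxna4 (2.62) completed the 10 members with the largest excess in NeuN+ nuclei, whose adjusted p ranged from 3.89e-05 to 5.71e-04.

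The plexins split by subfamily. All 4 A-plexins and Plxnc1 were higher in NeuN+ nuclei, Plxnb1 and Plxnb3 were lower, and Plxnb2 (-0.23) and Plxnd1 (-0.01) were not called. Plxnb3 had the largest difference of all members towards NeuN– nuclei, with a log2 fold change of -5.38 (SE 0.65) and 1.88 to 23.6 CPM in NeuN+ against 242 to 696 in NeuN– libraries. Sema3d (-3.51), the netrin receptor Unc5b (-3.15), Plxnb1 (-2.95), Sema6a (-2.93), Ntn1 (-2.46), Epha2, Efnb3 (-1.91), Ephb4 (-1.89) and Efna1 (-1.69) were the other members with the largest deficit. Their adjusted p ranged from 3.3e-05 to 0.0295. The other semaphorins were divided, with 5 of 13 higher, 6 lower and 2 not called, and so were the class 3 semaphorins with 2, 2 and 3. Among the netrins Ntn5 was higher (2.27) and Ntn1 and Ntn4 (-1.35) lower, whereas Dcc (1.21), Unc5a and Unc5d (1.60) were higher, Unc5b was lower and Unc5c (0.44) was not called. The ephrins and EphB receptors gave 2 higher, 2 lower and 1 not called among the ephrin-A ligands, 1, 1 and 1 among the ephrin-B ligands, and 2, 2 and 1 among the EphB receptors. For 30 members every NeuN+ library lay above every NeuN– library, and for 12 below, against 8.92% and 6.31% of all genes.

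**Figure D2:**
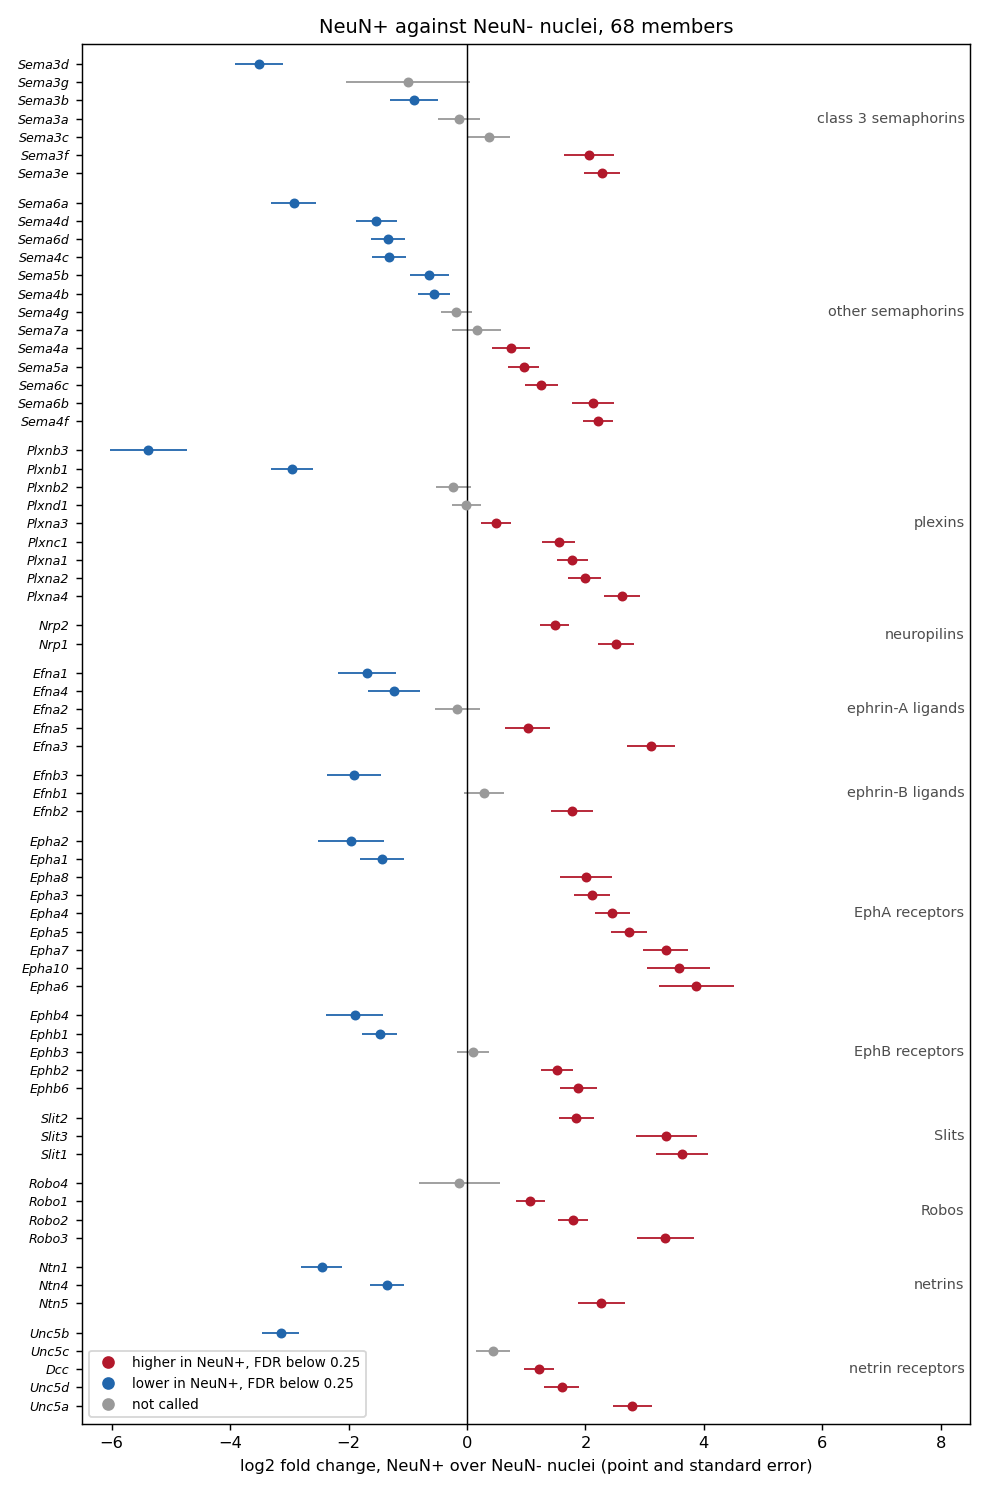
Log2 fold change of NeuN+ over NeuN– nuclei with its standard error for the 68 members, grouped by role and coloured by the call at an FDR below 0.25. The EphA receptors and Slits lie mostly to the right, and Plxnb3 lies farthest to the left at -5.38.

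Whether kainate changed the expression of the members in neurons 24 h later was tested first by comparing kainate with sham neurons on group means. In the joint fit of both cell types no member was called at an FDR below 0.25, against 0.157% of all genes higher and 0.00737% lower. A separate fit per cell type called 2 in neurons (2.94%, against 1.29% of all genes). At an unadjusted p below 0.05 there were 5 members, with Sema3e, Sema4a and Plxnb1 higher and Sema5a and Sema6c lower, against 1.46% and 0.626% of all genes, and DESeq2's Wald test called 1, Sema3e. The kainate neurons did not overlap the sham neurons for 11 members, with 4 entirely above (Sema3e, Sema4a, Plxnb1 and Sema4c) and 7 entirely below (Sema5a, Sema6c, Ntn5, Robo1, Dcc, Plxna3 and Plxna4), against 4.26% and 3.6% of all genes. The median log2 fold change over the members was 0.00, and 34 had a positive and 34 a negative sign. All 7 class 3 semaphorins had a positive sign, from 0.11 to 1.48, and all 3 netrins a negative one, from -0.77 to -0.04, but none of these passed the test.

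Kainate and sham libraries with one replicate number deviated together from their group means, though weakly for number 2 of the neurons (correlation 0.16). The number was used as a block within each cell type. With this block 6 members rose in neurons (8.82%, against 3.19% of all genes) and 4 fell (5.88%, against 1.9%). The block fit had 3 residual degrees of freedom and took most of its estimate of the spread from all genes (48.0 prior degrees of freedom), so its small standard errors rest on the assumption that the members vary like other genes of their level. The same level difference between members and background as above applies.

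The bases before the start of the 3 genes that rose most with the block in neurons and of Sema5a, which fell most, are shown. Kainate differed from sham in one direction in all 3 pairs of libraries for these members. That also held for Efnb3, Sema6c, Ntn5, Efna3 and Sema3f, which were called too and are not shown. The bases are from RefSeq (GRCm38.p6), which had promoter entries for 58 of the 68 members, and not for Efnb3 and Sema3f. They run 5′ to 3′ on the strand of the gene up to the start of the gene in both annotations. Capitals mark the GC box letters GGGCGG or, on the other strand, CCGCCC.
Sema3e, chr5:14025026-14025275, plus strand: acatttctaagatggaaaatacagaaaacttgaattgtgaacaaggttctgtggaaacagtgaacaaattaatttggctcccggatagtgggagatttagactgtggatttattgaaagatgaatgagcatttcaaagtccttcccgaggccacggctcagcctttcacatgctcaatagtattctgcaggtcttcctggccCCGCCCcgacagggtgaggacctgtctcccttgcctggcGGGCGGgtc
Sema4a, chr3:88461183-88461432, minus strand: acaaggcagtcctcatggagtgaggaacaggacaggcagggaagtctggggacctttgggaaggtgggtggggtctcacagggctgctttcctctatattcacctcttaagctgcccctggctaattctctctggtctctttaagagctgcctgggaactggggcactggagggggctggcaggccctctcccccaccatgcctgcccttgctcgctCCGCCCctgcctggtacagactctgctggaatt
Plxnb1, chr9:109095186-109095388, plus strand: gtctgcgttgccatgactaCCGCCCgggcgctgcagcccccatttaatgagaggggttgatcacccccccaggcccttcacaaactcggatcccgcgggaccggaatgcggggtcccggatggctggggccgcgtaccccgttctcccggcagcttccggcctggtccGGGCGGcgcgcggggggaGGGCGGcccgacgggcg
Sema5a, chr15:32244563-32244809, plus strand: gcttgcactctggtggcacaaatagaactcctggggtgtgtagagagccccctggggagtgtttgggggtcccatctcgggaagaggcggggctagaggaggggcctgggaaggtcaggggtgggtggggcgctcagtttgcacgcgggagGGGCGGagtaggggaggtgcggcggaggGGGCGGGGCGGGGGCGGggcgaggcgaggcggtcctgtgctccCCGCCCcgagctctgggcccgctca
These windows held 2 GC boxes in Sema3e, 1 in Sema4a, 3 in Plxnb1 and 5 in Sema5a, where 3 run into each other. The window of Plxnb1 is 203 bases and that of Sema5a 247, since 47 and 3 bases that the gene models place after the start were left out, and 1 of the 4 windows of Sema4a is shown. Of all 32851 windows of 250 bases before a start, 32.7% held a GC box, and of the 74 windows of the 58 members 52 did (70.3%). The share of G and C was 48.0% in Sema3e, 59.6% in Sema4a, 72.9% in Plxnb1 and 71.7% in Sema5a, against a median of 52.4% over all windows. The AP-1 letters TGAGTCA or TGACTCA (in 4.46% of all windows), the CRE letters TGACGTCA (1.55%) and the E-box letters CACGTG (6.02%) were in none of the 4 windows shown. These are matches of letters and not measured binding sites.

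A secreted semaphorin, a membrane-bound semaphorin and a plexin led the rise. Sema3e, a secreted class 3 semaphorin that binds Plxnd1 directly, lies at chr5:14025276-14256689 and was at 268, 214 and 247 CPM in kainate neurons against 132, 61.5 and 66.8 in sham neurons. The groups did not overlap, and the kainate library exceeded the sham library of its number by 2.03-, 3.47- and 3.70-fold. The log2 fold change was 1.48 (SE 0.38, unadjusted p = 0.00173) on group means and 1.57 (SE 0.20, adjusted p = 8.75e-08) with the block. Sema4a, a membrane-bound semaphorin at chr3:88435959-88461182, was at 109, 94.4 and 82.0 CPM against 54.4, 46.3 and 31.6. All kainate libraries were again above all sham libraries, and the log2 fold change was 1.11 (SE 0.42) on group means and 1.14 (SE 0.19, adjusted p = 2.9e-05) with the block. Plxnb1, a receptor of membrane-bound class 4 semaphorins, lies at chr9:109095389-109119917 and was at 30.2, 58.8 and 61.6 CPM against 17.7, 24.3 and 27.7. The lowest kainate library, replicate 1, was close to the highest sham library, but within each number kainate was higher by 1.71- to 2.41-fold. The log2 fold change of Plxnb1 was 1.11 (SE 0.46) on group means and 1.07 (SE 0.19, adjusted p = 5.72e-05) with the block.

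Efna3 (0.56, adjusted p = 0.173), the netrin receptor Unc5d (0.60, 0.152) and Sema3f (0.78, 0.247), a repellent that acts through Nrp2, were the other members that rose with the block. Efna3 was at 125, 56.9 and 50.9 CPM in kainate neurons and 96.7, 36.0 and 32.1 in sham neurons, so that its replicate 1 stood above the other libraries in both groups. Unc5d was at 52.3, 63.4 and 50.3 CPM against 52.9, 34.3 and 26.4, with no excess in replicate 1. Sema3f was low, at 17.1, 10.6 and 8.69 CPM against 14.1, 6.66 and 3.19, and higher in kainate within each number. Each of these 3 calls was lost when at least 1 of the numbers was left out. The log2 fold change then ran from 0.51 to 0.66 for Efna3, from 0.44 to 0.91 for Unc5d and from 0.47 to 1.05 for Sema3f.

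The 4 members that fell in neurons were Efnb3, Sema5a, Sema6c and Ntn5. Sema5a, a membrane-bound semaphorin with thrombospondin repeats at chr15:32244810-32696341, was at 79.6, 97.5 and 50.8 CPM in kainate neurons against 147, 134 and 137 in sham neurons. The sham libraries lay close together and above every kainate library, and the log2 fold change was -0.87 (SE 0.34) on group means and -0.92 (SE 0.19, adjusted p = 0.00107) with the block. Sema6c, a transmembrane class 6 semaphorin, was at 71.6, 63.0 and 39.6 CPM against 126, 87.4 and 91.0, also without overlap. Its log2 fold change was -0.80 (SE 0.36) and with the block -0.83 (adjusted p = 0.00438). Efnb3 was at 140.4, 86.2 and 59.7 CPM against 249.8, 145 and 127, where replicate 1 was the highest under both treatments and the groups overlapped. Within numbers it was lower by a ratio of 0.47 to 0.59, and the log2 fold change was -0.87 (SE 0.60) on group means and -0.89 (SE 0.18, adjusted p = 5.6e-04) with the block. Ntn5 was at 15.9, 13.6 and 8.38 CPM against 26.2, 19.4 and 18.8 (block log2 fold change -0.80, adjusted p = 0.0914), with 23.4% of its exonic length shared with Sec1. The call of Ntn5 was lost without number 1 (-0.83, adjusted p = 0.303) and without number 3 (-0.62, adjusted p = 1.00).

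**Figure D3:**
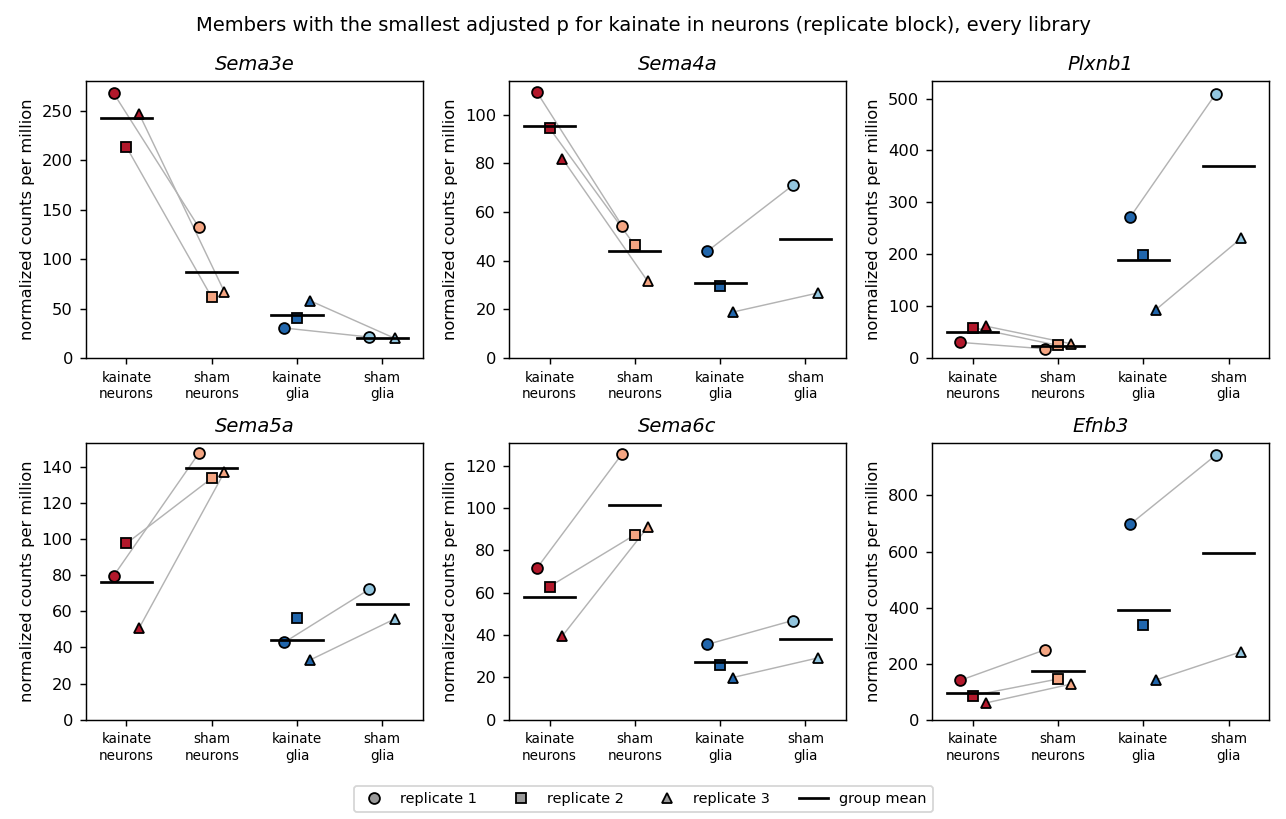
Normalized CPM in every library for Sema3e, Sema4a, Plxnb1, Sema5a, Sema6c and Efnb3, with the group mean as a bar and grey lines joining kainate and sham libraries of one replicate number. Sema3e, Sema4a and Plxnb1 are higher and Sema5a, Sema6c and Efnb3 lower in all 3 pairs of neuron libraries, and the glia libraries of Sema4a and Plxnb1 run the other way.

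Sema3e, Sema4a, Plxnb1 and Efnb3 were called in neurons with each number left out in turn. Without number 3 the block called 4 members (5.88%, against 1.92% of all genes), and Sema5a (-0.92 with all libraries, -0.67 without number 3, adjusted p = 0.333) and Sema6c (-0.64, adjusted p = 0.469) were no longer among them, whereas without number 2 it called 20 (29.4%, against 7.28% of all genes), of which 8 were higher and 12 lower. Among other members near the top, Robo1 (-0.46 on group means, adjusted p = 0.314 with the block) and Unc5b (0.50, adjusted p = 0.325 with the block) were called by neither fit. The summed level of 7 astrocyte markers was 255 to 415 CPM in kainate neurons and 173 to 242 in sham neurons, without overlap. The block called 4 of these 7 markers higher (Gfap, Aqp4, Aldh1l1 and Slc1a2) and 2 lower (Slc1a3 and Gja1) in kainate neurons, and 2 of the 8 neuron markers, Gad1 and Gad2, higher. The sum of 7 microglia markers was 68.5 to 74.4 and 46.0 to 69.6. In the same order the oligodendrocyte sum was 209 to 447 and 263 to 475 CPM and that of 4 precursor markers 13.9 to 69.2 and 16.2 to 63.8. With the block 1 microglia and 1 precursor marker were called higher, and 1 microglia, 1 precursor and 1 oligodendrocyte marker lower. The part of these markers in the result was not tested. Plxnb1 was higher in NeuN– than in NeuN+ nuclei. Plxnb3, with a larger excess there, was at 2.77, 10.0 and 22.7 CPM in kainate neurons and 1.88, 10.9 and 23.6 in sham neurons.

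In glia the same question was put to 3 kainate and 2 sham libraries. On group means no member was called, against 0.0933% of all genes higher and 0.00737% lower. Sema3e alone, higher in kainate, had an unadjusted p below 0.05, against 1.35% of all genes higher and 0.695% lower, and DESeq2 called none. The groups did not overlap for 8 members, of which 6 were higher in all kainate libraries (Sema3e, Sema7a, Sema3c, Nrp2, Ephb4 and Ephb6) and 2 lower (Sema4g and Robo2), against 4.7% and 3.52% of all genes. The replicate block, which rests here on numbers 1 and 3 because number 2 has no sham library, called 4 members higher (5.88%, against 2.93% of all genes) and 11 lower (16.2%, against 2.86%). The pair of number 1 sets a sham library of 0.05 ng against a kainate library of 1 ng, and both without number 1 and without the 2 low-input libraries, which each leave the pair of number 3 alone, the block called 5 members higher and 3 lower. With this block the median log2 fold change over all genes was 0.11 and over the members -0.07.

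Sema3e was higher in kainate glia too, at 30.4, 40.9 and 58.1 CPM against 21.2 and 19.8 in replicates 1 and 3 of sham glia. The groups did not overlap, and the log2 fold change was 1.07 (SE 0.44, unadjusted p = 0.0277) on group means and 1.04 (SE 0.25, adjusted p = 0.00757) with the block. Sema7a, a lipid-anchored semaphorin, was at 40.5, 32.6 and 20.8 CPM against 20.8 and 9.87. The lowest kainate library equalled the highest sham library to within rounding, while within numbers kainate was higher by 1.95- and 2.11-fold (block log2 fold change 1.02, SE 0.28, adjusted p = 0.0261). Robo3, a Robo of divergent ligand binding, was at 7.65, 22.4 and 44.3 CPM against 5.05 and 20.3 and had 0.90 (adjusted p = 0.0242) with the block, while on group means 0.97 became -0.011 without KLn replicate 3. Sema4c was at 76.4, 70.8 and 47.3 CPM against 61.9 and 23.9, with 0.64 (adjusted p = 0.235) with the block. Its value was 0.26 without number 3 of the glia and 0.96 without number 1. The sum of neuron markers in these libraries was 821 CPM in kainate and 969 in sham glia of number 1, and 796 and 628 of number 3. The block called 2 of the 8 neuron markers, Gad1 and Tubb3, higher in kainate glia and none lower, and their part in the values of Sema3e and Robo3, both higher in NeuN+ nuclei, was not tested.

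Among the 11 members that fell in glia with the block, 7 (63.6%) were lower in NeuN+ than in NeuN– nuclei, against 584 of the 1163 genes that fell there (50.2%). Plxnb1 was at 272, 199 and 93.5 CPM in kainate and 509 and 231 in sham glia. The highest kainate library overlapped the lower sham library, but within numbers the ratio was 0.53 and 0.40, and the log2 fold change was -0.98 (SE 0.50) on group means and -1.10 (SE 0.22, adjusted p = 8.66e-04) with the block. On group means the value for Plxnb1 ran from -1.45 without KLn replicate 1 to -0.27 without SLn replicate 1. Sema6d, a transmembrane ligand of A-plexins, was at 179, 208 and 96.1 CPM against 339 and 166 (-0.85, adjusted p = 0.0179). Plxnb3 was at 465, 557 and 242 CPM against 696 and 497 (-0.81, adjusted p = 0.0258). Both showed the same order within each number and overlap between the groups. Ephb1, a receptor of B-ephrins, was at 76.1, 78.0 and 34.0 CPM against 122 and 61.8, and Efnb3, one of these ligands, at 698, 339 and 142 against 944 and 243. Here the differences between numbers exceeded those between treatments. Ephb1 (-0.77), Efnb3 (-0.60), Ntn1 (-0.78) and Sema6a (-0.60) made up the 7 with Plxnb1, Sema6d and Plxnb3, with adjusted p from 0.0591 to 0.2498. Leaving out number 3 of the glia moved Sema6a to -0.21, and leaving out number 1 moved it to -1.07. Sema5a (-0.76), Ntn5 (-0.96) and Sema4a (-0.60), which were higher in NeuN+ nuclei, and Sema4g (-0.96) also fell with the block, with adjusted p from 0.0683 to 0.236. Sema4g, at 11, 12.5 and 7.08 CPM against 19.6 and 15.1, was the only one of these whose groups did not overlap.

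**Figure D4:**
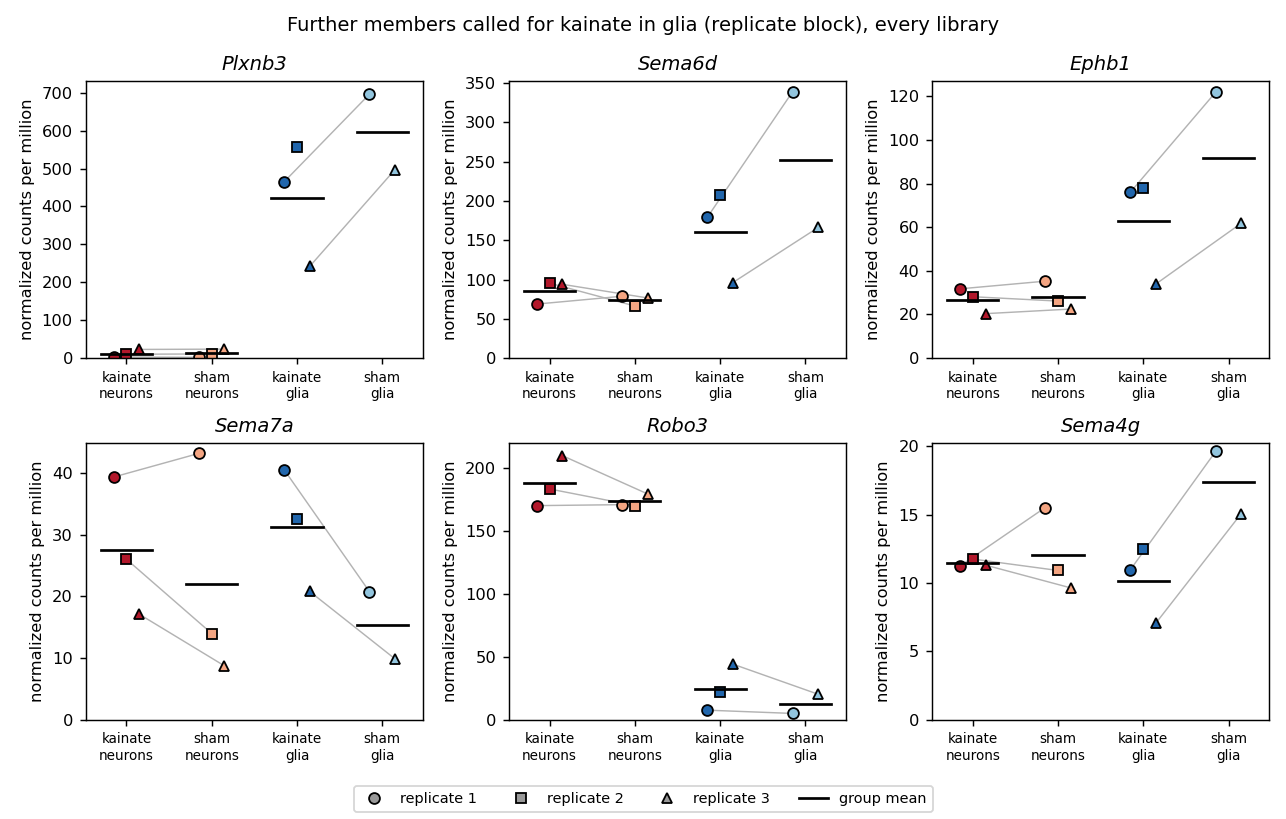
Normalized CPM in every library for Plxnb3, Sema6d, Ephb1, Sema7a, Robo3 and Sema4g, drawn as in the plot of Sema3e. In glia, Plxnb3, Sema6d, Ephb1 and Sema4g are lower and Sema7a and Robo3 higher in kainate within both numbers, and libraries of number 1 and number 3 differ within each treatment.

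Summed markers of glial cell types were lower in kainate glia within each number too, though the microglia sum of number 3 hardly differed. The oligodendrocyte sum was 27163 CPM in kainate against 38943 in sham glia of number 1, and 4852 against 8752 of number 3. The block called 4 of 6 oligodendrocyte markers, 3 of 4 precursor markers, 4 of 7 astrocyte markers and 2 of 7 microglia markers lower in kainate glia, and 1 astrocyte marker, Gfap, higher. The precursor sum was 1721 against 2923 CPM and 435 against 867, and the astrocyte sum 3280 against 4290 and 636 against 1100.1. That of the microglia markers was 1882 against 3569 CPM and 653 against 660. The part of these markers in the values of Plxnb1, Plxnb3, Sema6d, Sema6a, Efnb3 and Ephb1 was not tested. With number 1 of the glia left out the block called 8 members (11.8%, against 2.43% of all genes) and with number 3 left out 12 (17.6%, against 11.3%), each on a single remaining pair taken to vary like the other groups. Without number 3 the calls were 2 higher and 10 lower. Without the 2 low-input libraries 5 of the 15 members kept their call (Plxnb1, Plxnb3, Robo3, Sema3e and Sema6a), and the 10 others, among them Sema6d (-0.79, adjusted p = 0.569) and Sema7a (1.08, adjusted p = 0.355), did not, with log2 fold changes of these 2 close to those with all libraries. Of the 15 members called in glia with both numbers, Plxnb1 alone was called both times (-1.33 and -0.95), and Sema3e was called without number 1 (1.53) and not without number 3 (0.47, adjusted p = 0.507). On group means the low-input sham glia replicate 1 decided the sign for Efnb3, which was -0.59 with and 0.73 without it, for Sema4a (-0.67 and 0.23), Sema6a (-0.44 and 0.35) and Ephb1 (-0.55 and 0.049). Values near the top that neither fit called were those of Nrp2 (0.65 on group means, adjusted p = 0.534 with the block), Sema3c (0.86, adjusted p = 0.828) and Plxnd1 (0.59, adjusted p = 0.582).

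Of the 10 members called in neurons and the 15 called in glia with the block, 6 were called in both, which is 60% of the first and 40% of the second list. Of all genes, the block called 673 in both cell types, or 32.5% of the calls in neurons and 28.6% of those in glia, and 617 of them had one direction. Sema3e rose and Sema5a, Efnb3 and Ntn5 fell in both cell types with the block, whereas Sema4a and Plxnb1 rose in neurons and fell in glia. In glia the directions of Efnb3 and Sema4a turned on group means without SLn replicate 1, and that of Ntn5 without SLn replicate 3. The 2 fractions of a pool come from the same mice. For the other 49 members neither fit called a kainate effect.

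**Figure D5:**
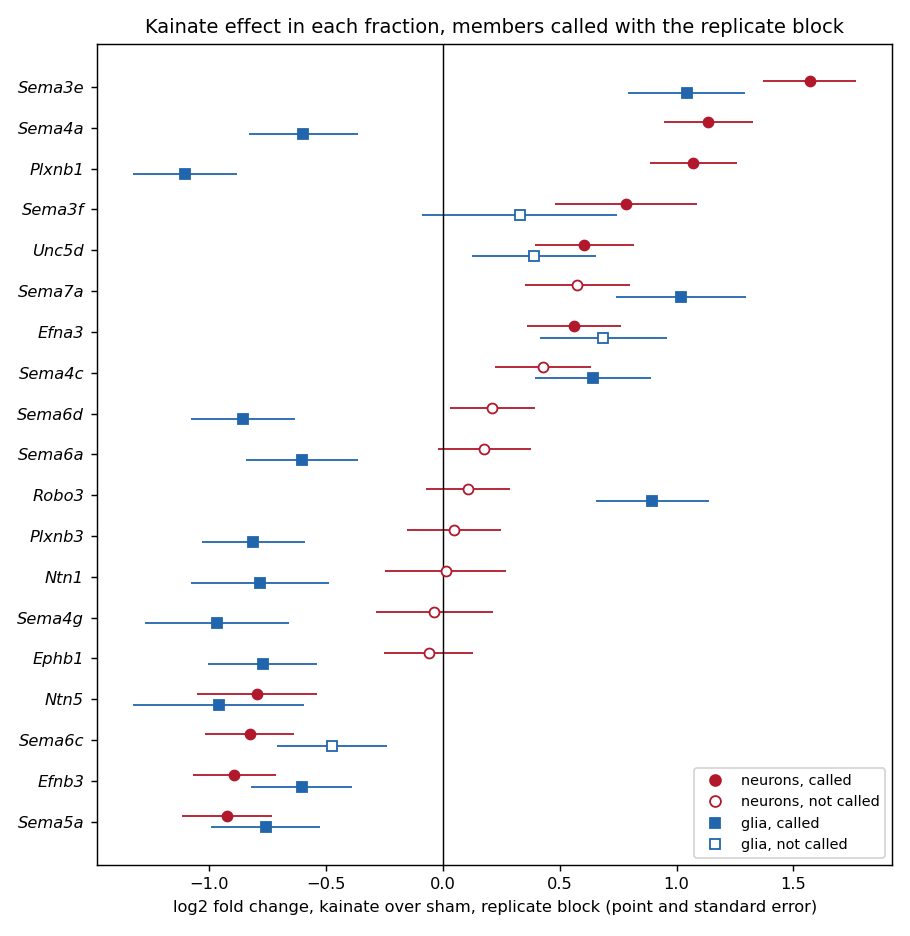
Log2 fold change of kainate over sham with the replicate block and its standard error, in neurons (red circles) and glia (blue squares), for the 19 members called in either, filled where called. Sema3e lies to the right in both fractions, Sema5a, Efnb3 and Ntn5 to the left in both, and Plxnb1 and Sema4a on opposite sides.

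The difference of the kainate effect between neurons and glia was tested as an interaction. On group means no member was called, against 0.00246% of all genes higher and 0% lower, and 2 members, Plxnb1 (2.09, SE 0.68) and Sema4a (1.78, SE 0.63), were below an unadjusted threshold of 0.05, both higher in neurons, against 0.447% of all genes higher and 0.462% lower. With 1 library left out these differences ran from 1.38 (without SLn replicate 1) to 2.55 (without SLn replicate 3) for Plxnb1 and from 0.89 to 2.33 for Sema4a, without the same libraries. DESeq2 called none. With the replicate block 3 members had a larger log2 fold change in neurons than in glia and none a smaller one, against 1.23% and 0.702% of all genes. Plxnb1 differed by 2.18 (SE 0.29, adjusted p = 2.99e-06), Sema4a by 1.73 (SE 0.30, adjusted p = 3.21e-04) and Sema6d by 1.07 (SE 0.29, adjusted p = 0.0563). Plxnb1 and Sema4a were called with each number of either cell type left out, from 1.97 to 2.35 and from 1.61 to 1.83, and without the 2 low-input libraries. Sema6d was not called without number 1 of the glia (0.97, adjusted p = 0.462). With the pool as the block in place of the number, the differences were 2.11, 1.78 and 0.76, and none of the 3 was called (adjusted p = 1.00, 0.516 and 1.00). The next members by p on group means, Sema4g (0.70, SE 0.52) and Plxnd1 (-0.63, SE 0.50), were called by none of these fits. The glial markers that fell in kainate glia, given above, are of the same libraries, and their part in this difference was not tested.

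Known partners of the members that moved can be set beside them. Plxnd1, the receptor of Sema3e, was at 22.8, 30.7 and 22.9 CPM in kainate and 33.1, 22.8 and 22.6 in sham neurons, with no difference called. Plxna1 and Plxna3, receptors of Sema5a, had log2 fold changes in neurons of -0.01 and -0.42, and Sema4d, the best known ligand of Plxnb1, -0.22 in neurons and -0.31 in glia, all without a call. Ephb2 and Epha4, receptors of ephrin-B3, had -0.33 and -0.36 in neurons. Slit1 (-0.40), Slit2 (-0.33) and Slit3 (0.20) were not called in neurons by either fit. None of the 14 Eph receptors was called in neurons with or without the block, and of the 4 Robos and 5 netrin receptors Unc5d alone was. The block called 5.09% of all genes in neurons, and counts among so few genes cannot be told from that share.

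Other genes of the pathway were followed as 3 lists, of which all genes were tested. Among 20 other guidance cues, 8 were higher and 6 lower in NeuN+ nuclei, among 30 other receptors and co-receptors 16 and 7, and among 68 intracellular effectors 30 and 18, against 16.8% and 20.4% of all genes. For kainate in neurons, group means called 1 of these genes, the effector Plcg2, a phospholipase, which was at 3.49, 4.38 and 3.92 CPM in kainate and 10.5, 10.5 and 13.6 in sham neurons (log2 fold change -1.55, SE 0.32, adjusted p = 0.204). The median log2 fold change in neurons was -0.02 for the cues, -0.07 for the receptors and 0.04 for the effectors, against -0.01 for all genes tested. With the block, 1 cue rose and 4 fell in neurons, 5 receptors rose and 4 fell, and 8 effectors rose and 3 fell, against 3.19% and 1.9% of all genes. Vegfa, a growth factor that also guides axons, had the largest rise, from 111, 44.6 and 59.2 CPM in sham to 319.6, 161 and 388 in kainate neurons (2.03, adjusted p = 6.27e-11). The chemokine Cxcl12 fell from 74.9, 29.5 and 33.5 to 16.1, 10.9 and 12.2 CPM (-1.70, adjusted p = 4.96e-08) and the hedgehog signal transducer Smo from 8.06, 11.1 and 12.6 to 2.63, 2.68 and 3.69 CPM (-1.82, adjusted p = 2.58e-06). Lingo1 (1.13) and Rtn4rl2 (0.90), components of receptors for myelin inhibitors, and the receptor kinase Ret (1.25) rose in neurons with adjusted p from 5.57e-05 to 0.0117. In glia group means called none of the 118 genes, and the block called 2 cues, 2 receptors and 1 effector higher and 4, 6 and 5 lower, against 2.93% and 2.86% of all genes, with Rtn4rl2 (1.52, adjusted p = 2.2e-05) and Ret (2.22, adjusted p = 6.73e-04) higher there as well.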

How the data were processed

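The deposited values are raw counts of uniquely mapping reads per gene, made by the authors from reads of SMART-Seq v4 and ThruPlex libraries, which do not mark strand. They trimmed the reads with Trim Galore (version 0.4.3 per the submitters' processing notes), aligned them to mm10 with Rsubread and counted them with featureCounts on GENCODE M16. No normalization was applied before deposit. Values of the 11 bisulfite samples were not analysed here. One protocol text names right hippocampi, while the titles and methods give the left side, which is used.

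Symbols were joined by Ensembl ID (105 IDs without a symbol left out), and coordinates and exonic lengths are of GENCODE M21 on GRCm38. edgeR 4.0.16 (R 4.3.3, limma 3.58.1) filtered genes with filterByExpr (minimum count 10, minimum total 15), scaled by TMM and fitted 1 quasi-likelihood model (legacy=TRUE) to the 4 group means of 11 libraries. There were 7 residual and 6.76 prior degrees of freedom, and the biological coefficient of variation over all genes was 0.600. P-values were adjusted over 40714 genes by Benjamini-Hochberg, and an FDR below 0.25 was called, as in the study. The study analysed the cell types separately, which was an alternative here. CPM are TMM-normalized, and standard errors are the log2 fold change divided by the root of F. The fits of kainate against sham in neurons were tried on simulated data, with changes larger than those of any member there. The other comparisons were not simulated.

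Deviations from group means correlated between kainate and sham libraries of one number (neurons 0.64, 0.16 and 0.49, glia 0.76 and 0.79) and between fractions of one pool (0.24 to 0.67), so the number within each cell type, or the pool, was used as a block. Sham glia has a single pair of libraries, whose deviations are equal and opposite. The glia values, and those of the sham pools, are therefore not independent. Libraries of different numbers were not compared in this way. The labels call the numbers biological replicates and do not say that a number is shared by kainate and sham pools. The paper sequenced its mRNA libraries in pools on different instruments, with single or paired-end reads. The part of this in the differences between libraries was not tested. On group means, p-values measure the spread between pools of mice. With a block they measure the spread left after differences between numbers or pools are taken out. For the replicate block that spread was estimated mostly from all genes.

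Named are members called in a kainate comparison by either fit, the 5 with the smallest p in each direction, the 10 with the largest fraction difference in each direction, the highest per kilobase of each role and the 5 leading interactions. Partners of the members that moved, and the block-called genes of the lists, were chosen after their values were seen. Members and lists were chosen with earlier results of these data known. Alternatives were DESeq2 1.42.0 (size factors, Wald test), other filters, legacy=FALSE, FDR below 0.05, low input as a covariate, and leaving out libraries.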

Additional observations from a re-analysis of the deposited data

Results flagged for a closer look

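The kainate effect differed between neurons and glia for 3 members in the fit with the replicate block, by the test of the difference itself. The log2 fold change in neurons exceeded that in glia by 2.18 for Plxnb1, by 1.73 for Sema4a and by 1.07 for Sema6d, and none of the 3 was called on group means or with the pool as the block.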

How the results depend on the processing

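On group means, with edgeR's joint fit of both cell types and all libraries, no member was called for kainate. With the replicate block 10 were called in neurons, 15 in glia and 3 for the difference between the cell types. The block by pool called 0 for that difference and 60 between NeuN+ and NeuN– nuclei (59.7% of all genes), against 56 (37.2%) on group means. Leaving out the libraries of one number from the block fit gave 4 to 20 members in neurons, 8 to 12 in glia and, for the difference, 3 to 6 with a neuron number (1.34% to 2.96% of all genes) and 3 to 5 with a glia number left out, where the 5 without number 3 (7.35%) stand against 7.1% of all genes and the 3 without number 1 against 0.793%. The block without both low-input libraries gave 11 (16.2%, against 5.15% of all genes) in neurons, 8 (11.8%, against 1.97%) in glia and 2 (2.94%, against 0.62%) for the difference. On group means, DESeq2's Wald test called 1 member in neurons (1.47%, against 0.681% of all genes) and the separate fit per cell type 2 (2.94%, against 1.29%). Single libraries left out gave 0 to 1 member in neurons (Sema3e without KLn replicate 3, 1.47%, against 0.293% of all genes). Apart from the fits that left 1 sham glia library, they gave 0 in glia and 0 for the difference. Between the fractions these fits gave 52 to 56 members (76.5% to 82.4%), against 27.5% to 39.6% of all genes. Other settings gave 0 for kainate and 49 to 56 between the fractions, against 16.7% to 54.4% of all genes. Sham or kainate libraries alone gave 49 each (72.1%, against 16.7% and 20.7% of all genes). On group means, leaving out 1 library turned the direction of Efna3 in neurons (range -0.027 to 1.18, the former without KLp replicate 1) and, in glia, of Efnb3 (-1.43 to 0.73), Sema4a (-1.21 to 0.23), Sema6a (-1.17 to 0.35) and Ephb1 (-0.97 to 0.049), each without SLn replicate 1, Ntn5 (-0.84 to 0.16, without SLn replicate 3) and Robo3 (-0.011 to 2.28, without KLn replicate 3). Without both low-input libraries Efnb3 (0.82), Sema4a (0.25) and Sema6a (0.41) turned too. The cause was not tested. DESeq2's size factors moved the median of all genes by less than 0.1 on the log2 scale, whereas leaving out SLn replicate 3 moved that median in glia from 0.02 to 0.76. The block leave-outs, the block without low-input libraries, and the interaction in them were chosen after seeing the data. With 2 sham glia libraries, effects in glia rest on the fewest samples.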
